A study of Mus musculus with 44 samples.

Results

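Potassium channel genes, taken as every row of the expression table whose symbol begins with Kcn, made up 34 of 8203 rows in ribosome-bound RNA from amygdala Crh neurons of mice trained in auditory fear. By subunit class, 19 were voltage-gated (Kv) pore subunits, 7 were auxiliary subunits of Kv channels, 4 were inward rectifiers, 2 were two-pore domain channels and 2 were calcium-activated channels. GENCODE M21 lists 94 protein-coding genes with such a symbol, and the other members of the family were not analysed here.

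Potassium channels set the resting potential of a neuron, end the action potential and limit repetitive firing. Kv channels are tetramers of pore subunits, some of which cannot form a channel alone and act as silent partners, while beta subunits and KChIP proteins bind from the cytoplasm and alter gating and surface delivery. Inward rectifiers and two-pore domain channels pass current near rest, and calcium-activated channels open after spikes and shape the afterhyperpolarization. In the central amygdala, Crh marks a population of GABA neurons that take part in fear and extinction learning.

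All mice were Crh-TRAP, first-generation offspring heterozygous for a Crh-Cre transgene and a Cre-dependent eGFP-L10a ribosomal tag at Rosa26, aged 10 to 16 weeks, and each sample was 1 mouse. Tone-alone (TA) controls heard 5 tones with the shock generator off (n = 16, 10 males and 6 females), fear-conditioned (FC) mice received 5 tone-shock pairings (n = 12, 6 and 6), and extinction (EXT) mice were fear conditioned and heard 30 tones without shock in a new context on the following day (n = 16, 10 and 6). Tissue was taken 2 h after the last session as bilateral 1 mm punches centered over the amygdala, so that any cell of the punch with a history of Crh-Cre activity could carry the tag. EXT mice differed from TA mice by the tone-shock pairings, a further day, a new context and more tones, as well as by extinction itself. From FC mice they differed by the same items except the pairings, and in neither comparison can these be told apart. Fewer cells of a type and less RNA per cell cannot be told apart in such samples either.

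Values are log2 CPM, the share of a library that a gene takes, on a log scale, and whole reads could be recovered from all of them (360932 of 360932 within 0.01 of a read). Effective library sizes recovered in this way ran from 12802113 to 20440351 reads, with a median of 18015590 in TA, 16977973 in FC and 15412341 in EXT. They were inferred from the normalized values and are not sequencing totals, and an odd multiple would also give whole reads. Batches 3 and 4, with 5 and 1 mice, held EXT mice only, whereas batches 1, 2 and 5 held all groups. Batch 1 held 4 TA, 5 FC and 2 EXT mice, batch 2 held 5, 2 and 3, and batch 5 held 7, 5 and 5. Differences within a batch are given below as differences of means of these few mice, without adjustment for sex. The summed Crh and central amygdala markers had a median of 6098 CPM in TA, 5273 in FC and 4631 in EXT. Of the markers for Crh and central amygdala neurons 11 of 12 had a row, as did 5 of 5 neuronal markers. So did 7 of 7 astrocyte, 6 of 6 oligodendrocyte, 4 of 7 choroid plexus and 2 of 6 glutamatergic markers, and none of 5 microglial or 5 vascular ones. The summed choroid plexus markers ranged from 187 to 27465 CPM in TA, from 673 to 19373 in FC and from 186 to 51048 in EXT. The summed oligodendrocyte markers ranged from 1351 to 6183, from 1643 to 17875 and from 1805 to 13167 CPM in the same order, and the astrocyte markers from 648 to 2617, from 916 to 2246 and from 966 to 3206 CPM.

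Sequence upstream of the genes was read from RefSeq promoter windows (GRCm38.p6, 250 bases before to 50 bases after a start), which matched 24 of the 34 genes with 43 windows. Of these the 250 bases before the start are shown for Kcnf1, the gene that passed the test in EXT vs. TA. They are also shown for Kcna5, which had the lowest estimate after fear conditioning. Kcnc1 is shown from a set of genes that rose and fell together between mice. Each stretch lies on the strand of its gene and overlaps no annotated exon. Capitals mark matches on either strand to the cyclic AMP response element TGACGTCA, its core TGACG, the GC box GGGCGG and the TATA box TATAAA, where the core also lies inside the full element.
Kcnf1, chr12:17176889-17177138, minus strand: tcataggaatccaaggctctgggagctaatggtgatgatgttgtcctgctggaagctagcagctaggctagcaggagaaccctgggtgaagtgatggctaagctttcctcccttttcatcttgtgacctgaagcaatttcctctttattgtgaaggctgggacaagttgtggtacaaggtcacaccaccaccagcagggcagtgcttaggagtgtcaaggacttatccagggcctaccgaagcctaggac
Kcna5, chr6:126535556-126535805, minus strand: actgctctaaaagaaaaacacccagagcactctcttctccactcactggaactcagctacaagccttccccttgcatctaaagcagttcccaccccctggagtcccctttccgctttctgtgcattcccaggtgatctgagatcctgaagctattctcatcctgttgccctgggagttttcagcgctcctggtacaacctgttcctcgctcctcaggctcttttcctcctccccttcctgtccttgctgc
Kcnc1, chr7:46396218-46396467, plus strand: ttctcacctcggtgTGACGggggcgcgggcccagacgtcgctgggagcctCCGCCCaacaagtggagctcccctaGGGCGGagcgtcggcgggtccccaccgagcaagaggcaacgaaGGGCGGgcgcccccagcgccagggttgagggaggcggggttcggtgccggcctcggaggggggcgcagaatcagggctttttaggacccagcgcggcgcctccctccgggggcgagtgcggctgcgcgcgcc
The windows of Kcnf1 and Kcna5 held none of these letters, and that of Kcnc1 held 1 core and 3 GC boxes. Over the full windows, TGACGTCA stood in 0 of 43 windows of the family and in 1.79% of all 32851 windows. The core stood in 4 windows of the family (9.30%, against 20.8% of all), the GC box in 17 (39.5%, against 35.7%) and the TATA box in 3 (6.98%, against 13.6%). A match describes letters only, and its absence says nothing about a factor.

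The auxiliary subunits were the most abundant class per length. On a log2 RPKM scale, which divides CPM by kilobases of exon, the family spanned 7.21 log2 units, from Kcnip2 at 6.70 ± 0.34 (SD, n = 44) to Kcnh7 at -0.51 ± 0.50. Kcnip2 encodes a KChIP protein that binds Kv4 channels, which carry the fast A-type current. Kcnab1, a Kv1 beta subunit, followed at 5.68 ± 0.47, and 6 of the 7 auxiliary genes stood among the first 7 places. The exception was Kcnab3, another beta subunit, at 3.08 ± 0.74.

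Among the pore subunits the highest level was that of Kcnk1 (5.30 ± 0.47), the weakly conducting two-pore channel TWIK-1, and the other two-pore gene, Kcnk2 (TREK-1, opened by stretch and lipids), stood at 2.78 ± 0.43. The leading Kv pore subunit was Kcnh3 (4.61 ± 0.44), of the ether-a-go-go family, and Kcnq3, a subunit of the M-current that restrains repetitive firing, stood at 1.43 ± 0.55. Kcnd2, the Kv4 subunit that KChIP proteins serve, lay at 3.51 ± 0.39. The subunits Kcna1 (3.35 ± 0.48) and Kcna2 (1.87 ± 0.52) form low-threshold axonal channels. Among inward rectifiers the order ran from Kcnj9 (3.49 ± 0.50) to Kcnj16 (1.60 ± 0.78), with Kcnj3, the G-protein-gated subunit that pairs with Kcnj9, at 1.76 ± 0.35. The calcium-activated channels Kcnn2 (small conductance) and Kcnma1 (large conductance) stood at 2.20 ± 0.47 and 1.52 ± 0.40. Of the 33 steps between neighbours in this order, 30 were smaller than the SD of the upper gene, and the 3 wider ones lay below Kcnip2, below Kcnh3 and above Kcnh7. Lengths are exon unions of the annotation, from 2.15 to 14.6 kb, and a gene of which only short transcripts are used would be understated. The exons of 15 members overlap those of another gene on the opposite strand, by 40.4% for Kcna6, 31.1% for Kcnj3, 16.5% for Kcnn2 and 14.4% for Kcnk2, and whether reads were counted by strand is not given in the sources used here.

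**Figure D1:**
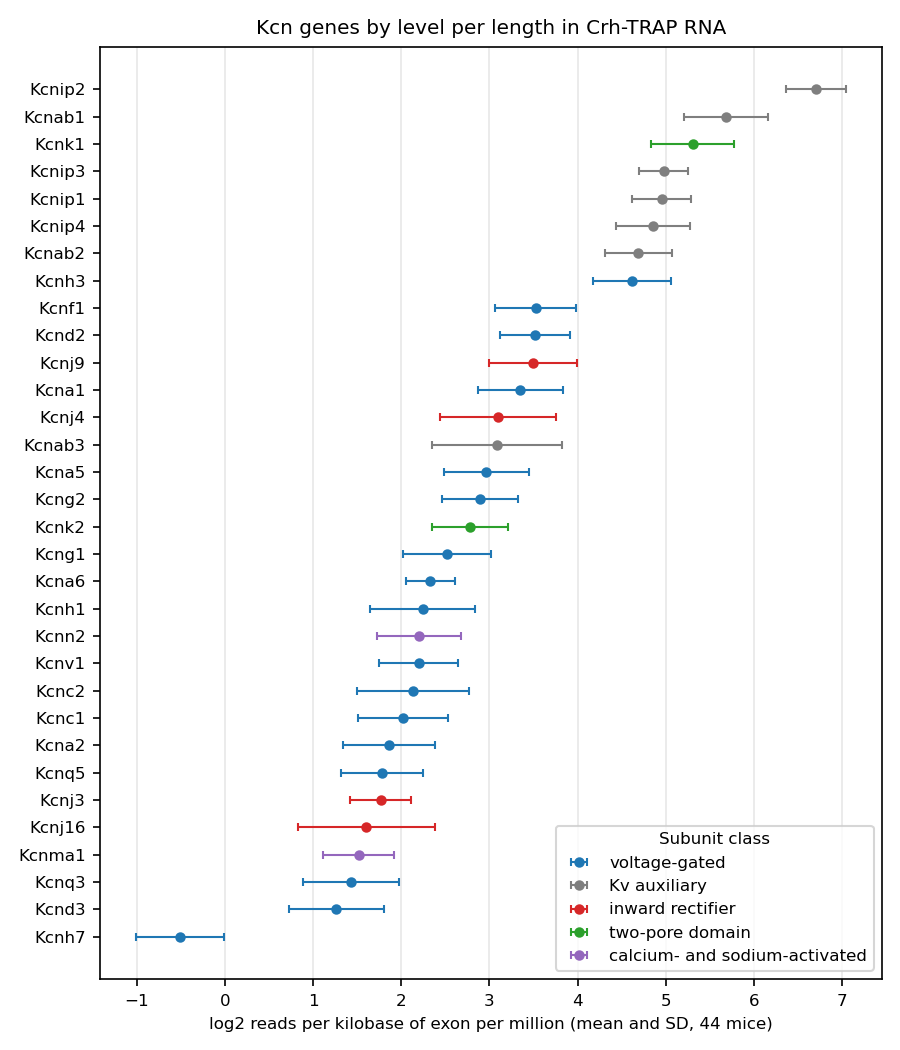
Level per length of 32 of the Kcn genes, as log2 RPKM on the horizontal axis. Points are means over 44 mice, bars are SD and colours give the subunit class. Kcnip2 stands alone at 6.70 and Kcnh7 alone at -0.51, and most neighbours overlap within their SD.

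The comparison of EXT with TA asked which channel genes differed between mice conditioned and then extinguished and mice that heard tones alone. Of the 34 genes, 1 differed at an FDR-adjusted p under 0.05 (2.94%), against 21.4% of all genes tested, and 0 were called higher (10.4% of all genes) and 1 lower (11% of all genes) by limma with batch number and sex as covariates. The gene called was Kcnf1, a silent Kv subunit that forms channels only together with other Kv subunits. Before adjustment, p was under 0.05 for 5 genes with higher estimates in EXT (19.1% of all genes) and 2 with lower ones (18.7% of all genes), together 20.6% of the family against 37.8%. The median log2 fold change over the family was 0.02 (0.01 over all genes), and the median size of a change, whatever its sign, was 0.20 (0.19 over all genes), with a median standard error of 0.15 (0.12 over all genes). Estimates above 0 made up 18 of 34, or 52.9%, against 50.8% of all genes. With batch coded as categories 0 of 34 passed the FDR threshold, as against 0.0244% of all genes. Under that coding p was under 0.05 before adjustment for 0 higher (10.2% of all genes) and 1 lower (11% of all genes), together 2.94% against 21.1%, and 16 of 34 estimates were above 0 (51.5% of all genes).

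Kcnf1 (chr12:17172100-17176888, GRCm38) had a lowest, median and highest log2 CPM of 5.38, 5.96 and 6.57 in TA, of 4.59, 5.81 and 6.43 in FC and of 5.03, 5.64 and 6.32 in EXT. The groups overlapped, but in EXT 14 of the 16 values were under the median of TA. The fitted log2 fold change in EXT vs. TA was -0.35 (SE 0.11, limma adjusted p = 0.0288). The difference was negative in each batch that held both groups, though few mice stood behind each value. Differences of means were -0.55 in batch 1 (2 EXT and 4 TA mice), -0.31 in batch 2 (3 and 5) and -0.21 in batch 5 (5 and 7). In batch 5 the medians were 5.59 in EXT and 5.58 in TA. Coded as categories, batch gave an estimate of -0.31 (SE 0.13) with p = 0.0185 and an adjusted p of 0.168, so that the direction stayed and the call was lost. The call was also lost without batches 3 and 4, at an estimate of -0.32. With log2 library size as a covariate the estimate was -0.31 with an adjusted p of 0.700, and the part of library size, whose median was lower in EXT than in TA, was not tested apart from the groups. In the main EXT vs. TA fit 11% of all genes were called lower and 10.4% higher. Of the Crh and central amygdala markers 4 of 11 were called lower and 1 higher. Of neuronal markers 1 of 5 was called lower, and of astrocyte markers 2 of 7 were called higher. None of 6 oligodendrocyte, 4 choroid plexus or 2 glutamatergic markers was called. Crh itself had an estimate of -0.93 (limma adjusted p = 0.0234) and the GABA-synthesis gene Gad1 of -0.61 (adjusted p = 0.0130). Meis2, of the same list, went the other way at 0.41 (adjusted p = 0.0348). The astrocyte gene S100b had an estimate of 0.71 (adjusted p = 0.0495), whereas Gfap of that list had -0.42 (adjusted p = 0.333). None of the markers was called with batch as categories. The summed neuronal markers had a median of 5764 CPM in TA and 4994 CPM in EXT. Within batches, their EXT and TA medians were 5180 and 4461 CPM in batch 1 and 4709 and 5900 CPM in batch 2. They were 6032 and 5800 CPM in batch 5, and the EXT-only batches 3 and 4 had 3461 and 2805 CPM. The residual r of Kcnf1 with the neuronal score was 0.45. The part of these markers in the Kcnf1 difference was not tested. Against FC, the estimate for EXT was 0.02 (SE 0.15, 95% interval -0.29 to 0.32).

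The other silent subunits differed in the sign of their estimates. Kcng2 had a lowest, median and highest log2 CPM of 3.95, 4.49 and 5.34 in TA and of 3.26, 4.07 and 5.30 in EXT, and its estimate was -0.32 (SE 0.14, limma adjusted p = 0.0931), or -0.13 (SE 0.13) with batch as categories. Kcnv1 ran from 3.59 through 4.13 to 4.83 in TA and from 3.48 through 4.58 to 5.19 in EXT, with an estimate of 0.27 (SE 0.16, adjusted p = 0.208), or 0.15 (SE 0.17) with batch as categories. For Kcng1 the estimate was 0.03 (SE 0.14, adjusted p = 0.894). The groups overlapped for each of these genes and none passed the FDR threshold.

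Kcnj16 had the largest positive estimate of the family, 0.64 (SE 0.25, limma adjusted p = 0.0603). It encodes an inward rectifier subunit that in brain is known mainly from astrocytes, where it pairs with Kir4.1. Its lowest, median and highest log2 CPM were 2.28, 3.19 and 4.10 in TA and 2.37, 3.84 and 5.28 in EXT. The EXT mice of batch 3 had a median of 4.98 and the EXT mouse of batch 4 had 5.00, against a median of 2.88 in the EXT mice of batch 5. The estimate was 0.09 (SE 0.20) with batch as categories, and the differences in batches 1, 2 and 5 were 0.48, 0.25 and -0.19. The median summed astrocyte markers were 2483 CPM in batch 3 EXT mice and 2204 CPM in the batch 4 EXT mouse. In EXT and TA mice they were 1823 and 1012 CPM in batch 1 and 1074 and 1704 CPM in batch 2. In batch 5 they were 1205 and 1283 CPM. Their part in the difference was not tested.

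Kcnma1, which couples calcium entry to spike repolarization, ran from 4.81 through 5.05 to 5.61 in TA and from 4.37 through 5.51 to 5.92 in EXT, with an estimate of 0.28 (SE 0.13, adjusted p = 0.107). The groups overlapped, and 13 of 16 EXT mice lay above the TA median. The estimate was 0.09 (SE 0.11) with batch as categories. Kcna2 ran from 4.41 through 5.17 to 6.18 in TA and from 4.53 through 5.64 to 6.81 in EXT, with an estimate of 0.36 (SE 0.17, adjusted p = 0.120), or 0.22 (SE 0.17) with batch as categories, and positive differences in batches 1, 2 and 5 (0.27, 0.25 and 0.17). The groups overlapped here as well. Kcnip3, a KChIP also known as the DNA-binding repressor DREAM, ran from 6.11 through 6.62 to 7.01 in TA and from 6.25 through 6.77 to 7.32 in EXT, with an estimate of 0.19 (SE 0.09, adjusted p = 0.127). None of these 3 genes was called.

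The remaining classes showed no call in EXT vs. TA. Among the auxiliary subunits 3 of 7 estimates were above 0, from -0.26 for Kcnab1 to 0.19 for Kcnip3, and Kcnip2 stood at 0.18 (SE 0.11) and Kcnab2 at -0.23 (SE 0.12). Among inward rectifiers the G-protein-gated Kcnj3 and Kcnj9, through which GABA-B and other receptors hyperpolarize neurons, had estimates of -0.06 (SE 0.12) and -0.13 (SE 0.13). Kcnq3 had an estimate of 0.28 (SE 0.17) and Kcnd2 of -0.15 (SE 0.14). Among axonal and fast-firing Kv subunits, Kcna1 stood at 0.06 (SE 0.13) and Kcnc1 at -0.08 (SE 0.17). The two-pore genes Kcnk1 and Kcnk2 stood at 0.01 (SE 0.16) and 0.26 (SE 0.16), and Kcnn2 at 0.22 (SE 0.18). Several of these depended on the coding of batch, which as categories gave -0.04 for Kcnab1, -0.08 for Kcnd2, 0.24 for Kcnk1, 0.08 for Kcnk2, 0.01 for Kcna1, 0.10 for Kcnc1 and -0.03 for Kcnn2. A missing call does not show equal levels: the 95% interval lay within 1 log2 unit of 0 for 33 of 34 genes (95.4% of all genes) and within 0.5 for 17 of 34 (58.6% of all genes). The gene outside the wider bound was Kcnj16, whose interval reached 1.15.

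**Figure D2:**
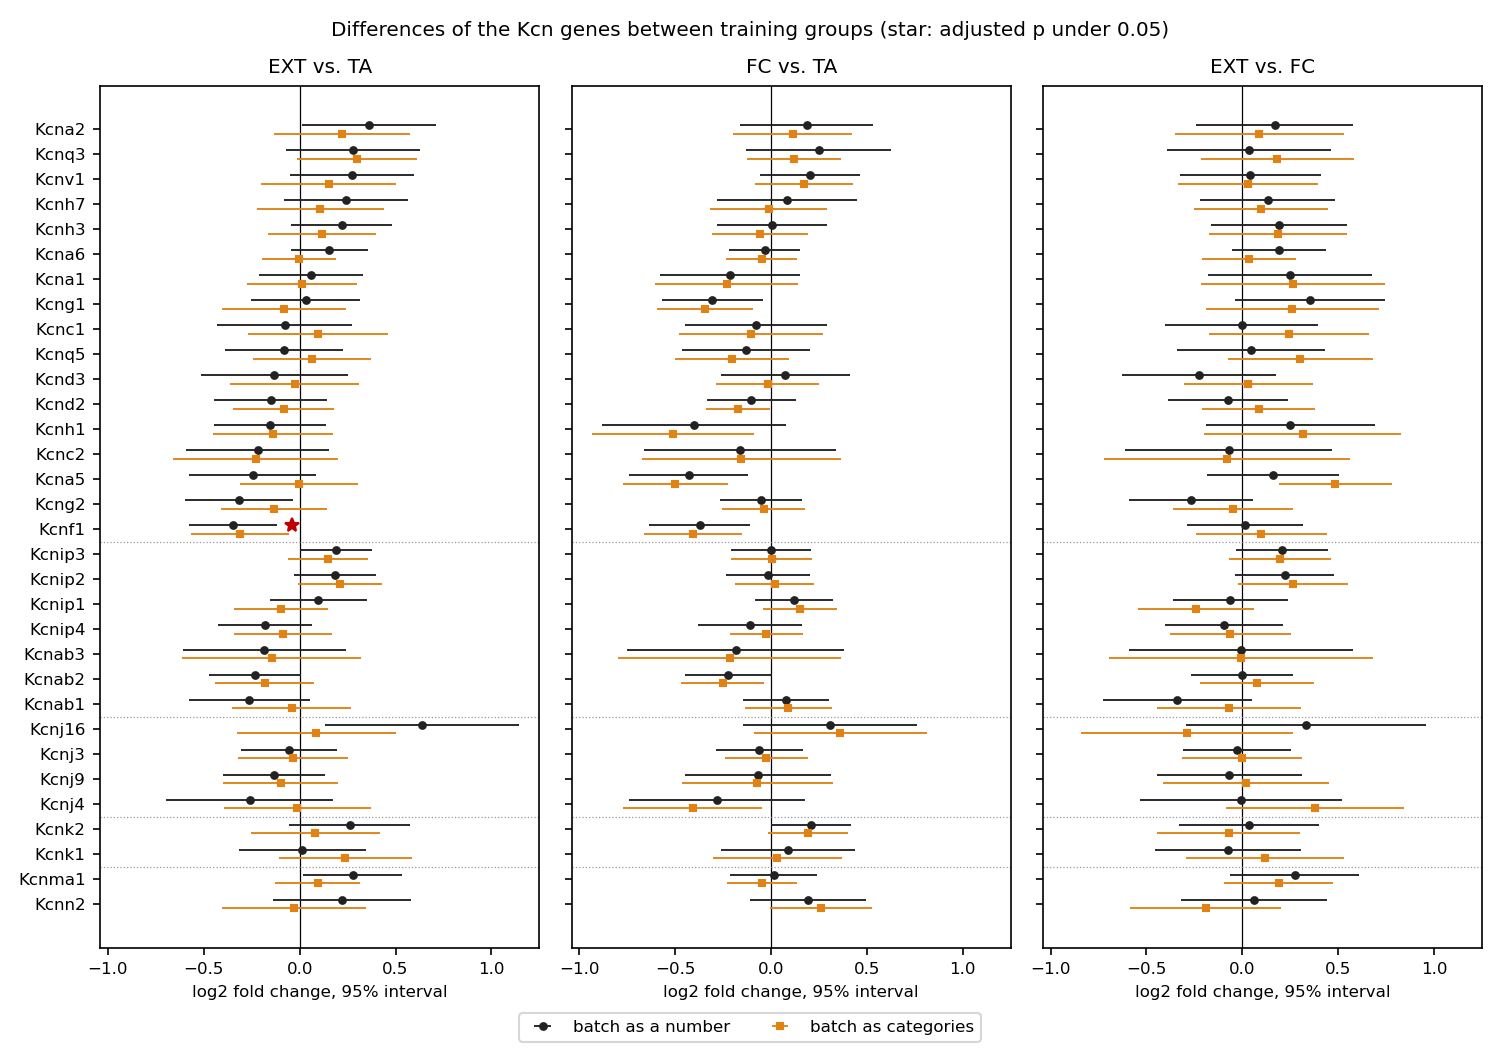
Log2 fold changes of 32 Kcn genes with 95% intervals in EXT vs. TA, FC vs. TA and EXT vs. FC, by class (dotted lines) in the order of the EXT vs. TA estimate. Black circles take batch as a number and orange squares as categories. The single star marks Kcnf1 at -0.35 in EXT vs. TA, and the black and orange estimates stand farthest apart there for Kcnj16 (0.64 and 0.09).

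The comparison of FC with TA asked what a single session of tone-shock pairing changed. In limma 0 of 34 genes passed the FDR threshold, as did 0 of all 8203 genes (0%). Before adjustment, p was under 0.05 for 3 of 34 (8.82%, against 10.4% of all genes), and these 3 had lower estimates in FC (6.18% of all genes), while none had a higher one (4.22% of all genes). With batch as categories there were 7 of 34 with lower estimates (20.6%, against 8.20% of all genes) and 0 with higher ones (8.61% of all genes). The 7 were Kcnf1, Kcna5, Kcng1, Kcnh1, Kcnj4, Kcnab2 and Kcnd2. Estimates above 0 numbered 15 of 34 (48.7% of all genes) with batch as a number and 12 of 34 (49% of all genes) with batch as categories. The median log2 fold change over the family was -0.04 with either coding and -0.00 over all genes.

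Kcna5, a delayed rectifier of the Kv1 family, had a lowest, median and highest log2 CPM of 3.71, 4.70 and 5.50 in TA, of 3.67, 4.26 and 5.25 in FC and of 3.62, 4.49 and 5.24 in EXT. The groups overlapped, and 11 of 12 FC mice lay below the TA median. Its estimate in FC vs. TA was -0.43 (SE 0.15, unadjusted p = 0.00853, limma adjusted p = 0.36), with differences of -0.50, -0.66 and -0.42 in batches 1, 2 and 5. The estimate was -0.50 with batch as categories (SE 0.13, adjusted p = 0.103). The unadjusted p for Kcna5 stayed under 0.05 in 9 of 9 other settings that kept the gene. For 1 of these, without batches 3 and 4, this was fixed in advance. Those batches held no FC or TA mice, so the fit is the main one.

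Kcnf1 had an estimate of -0.37 in FC vs. TA (SE 0.13, unadjusted p = 0.00715, limma adjusted p = 0.356), and 7 of 12 FC mice lay below the TA median. The differences in batches 1, 2 and 5 were -0.31, -0.24 and -0.57. Kcng1, the silent subunit Kv6.1, ran from 4.24 through 4.56 to 5.19 in TA and from 3.56 through 4.43 to 5.34 in FC, with an estimate of -0.31 (SE 0.13, unadjusted p = 0.0237, adjusted p = 0.414). Both genes overlapped between groups and were lower in FC in each shared batch, for Kcng1 by -0.17, -0.36 and -0.47. In EXT vs. TA, which shares the TA mice, the estimate was -0.35 for Kcnf1, 0.03 for Kcng1 and -0.25 (SE 0.16) for Kcna5, which was -0.00 (SE 0.15) with batch as categories. Among the genes with higher estimates in FC, the smallest p belonged to Kcnk2 (0.21, SE 0.10, unadjusted p = 0.0503).

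**Figure D3:**
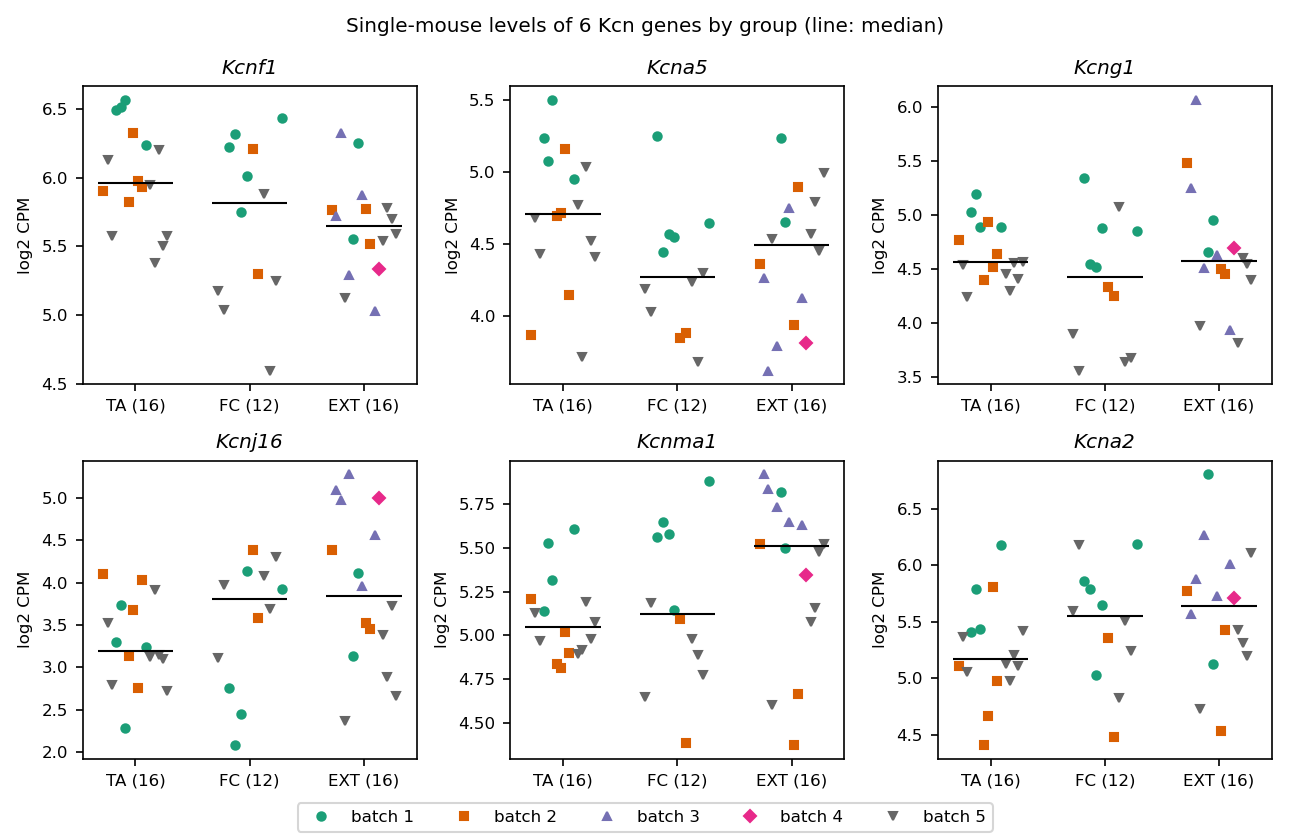
Log2 CPM in each mouse for 6 Kcn genes by group (16 TA, 12 FC and 16 EXT mice), with the batch given by colour and shape and the group median by a line. For Kcnf1, 14 of the 16 EXT values are under the TA median of 5.96, and the highest Kcnj16 values in EXT belong to batches 3 and 4.

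The comparison of EXT with FC asked how mice that had extinguished differed from mice that had only been conditioned. In limma 0 of 34 genes passed the FDR threshold (0% of all genes), and 0 had an unadjusted p under 0.05 in either direction, against 11% of all genes with higher and 8.35% with lower estimates. The smallest p-values of the family were those of Kcng1, Kcnab1 and Kcnip3. For Kcng1 the EXT values ran from 3.81 through 4.57 to 6.07, overlapping those of FC, and the estimate was 0.35 (SE 0.19, p = 0.0736, adjusted p = 0.294). Kcnab1 ran from 7.0 through 7.38 to 8.32 in FC and from 6.20 through 7.23 to 8.64 in EXT, with an estimate of -0.34 (SE 0.19, adjusted p = 0.310) that was -0.07 with batch as categories. The estimate of Kcnip3 was 0.21 (SE 0.12, adjusted p = 0.314), and 12 of 16 EXT mice lay above the FC median. Estimates above 0 numbered 20 of 34 (52.1% of all genes), and 24 of 34 (53.2% of all genes) with batch as categories. Under that coding 1 gene had a higher estimate with p under 0.05 before adjustment (2.22% of all genes) and 0 a lower one (1.97%), together 2.94% against 4.19%. It was Kcna5, higher in EXT by 0.48 (SE 0.14, p = 0.00232, adjusted p = 0.975), with differences of 0.25, 0.53 and 0.58 in batches 1, 2 and 5. The 95% interval lay within 1 log2 unit of 0 for 34 of 34 genes in both EXT vs. FC (96% of all genes) and FC vs. TA (99% of all genes). It lay within 0.5 for 19 of 34 in EXT vs. FC (55.5% of all genes) and for 22 of 34 in FC vs. TA (85.4% of all genes).

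The sexes gave no difference that passed a test. In EXT vs. TA 0 of 34 genes passed the FDR threshold in males (0.0853% of all genes) or in females (0% of all genes), and 0 did so for the difference between the sexes (0% of all genes). Before adjustment, p was under 0.05 in males for 5 higher (13.4% of all genes) and 1 lower (15.6%), and in females for 1 higher, Kcnn2 at 0.57 (8.9%), and 1 lower, Kcnf1 (5.99%). The estimate for Kcnf1 was -0.25 (SE 0.12) in males and -0.52 (SE 0.22) in females, and the difference between them, males minus females, was 0.28 (SE 0.23, limma adjusted p = 0.998). The smallest p for that difference was that of Kcnip1, a KChIP of GABA neurons, with 0.32 (SE 0.16) in males, -0.27 (SE 0.17) in females and a difference of 0.58 (SE 0.24, unadjusted p = 0.0195, adjusted p = 0.998). Of the 34 genes this 1 had an unadjusted p under 0.05 (2.94%, against 4.13% of all genes).

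By the median share of variance, batch stood above training group. The shares are not adjusted for the number of levels, and batch has more levels than group, which by itself raises its share. Batches 3 and 4 held EXT mice only, so the share of batch also holds part of that of group. Taken 1 factor at a time, batch accounted for a median of 33.8% of the variance of a Kcn gene (41.5% over all genes) and group for 4.78% (7.93% over all genes). The share of batch was highest for Kcnma1 (60.4%) and lowest for Kcnc2 (1.68%), and that of group was highest for Kcnf1 (13.8%). In TA mice alone, Kcnma1 had medians of 5.42, 4.90 and 4.98 in batches 1, 2 and 5, and Kcnf1 of 6.50, 5.93 and 5.58. The summed level of the family was similar across groups, with a median of 1849 CPM in TA (range 1622 to 2238), 1867 CPM in FC (1540 to 2511) and 1901 CPM in EXT (1461 to 2793).

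After group, batch and sex were taken out, several members rose and fell together from mouse to mouse. Over the 561 pairs the median residual Pearson r was 0.17 (n = 44 mice, which share library, depth and tissue makeup as sources of covariation), 59 pairs lay above 0.5 and none below -0.5. These correlations describe the libraries and were not tested. No value over pairs of other genes stands beside them, so they do not show whether the family covaried more than other genes. The highest was that of Kcnab3 and Kcnc2 (0.84). Both belong with Kcna1, Kcna2 and Kcnc1 to a set of 5 genes whose 10 pairs ran from 0.60 to 0.84. The set was picked from these same correlations, so its high range follows from the choice. Kcnc1 and Kcnc2 encode Kv3 channels that let neurons fire fast, and Kcna1, Kcna2 and Kcnab3 encode parts of axonal Kv1 channels. The residuals of these 5 genes correlated with the oligodendrocyte marker score at 0.51 to 0.68, against a median of 0.07 for the other members, among which Kcna6 reached 0.52. What part oligodendrocyte or axonal RNA had in this was not tested. Without the mice numbered 26 and 35, which stood apart for some of these genes, the r of Kcnab3 and Kcnc2 was 0.77 and that of Kcna1 and Kcna2 was 0.53.

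Pairs outside that set were also alike. Kcna2 and Kcnq3 had an r of 0.73, and Kcnf1 and Kcng1, both silent subunits, had 0.67. The G-protein-gated partners Kcnj3 and Kcnj9 had 0.06. The lowest r was that of Kcnh1, an ether-a-go-go channel, and Kcnn2 (-0.49). Kcna1, Kcna5 and Kcna6 lie next to each other on the minus strand of chromosome 6. Their lower coordinates, which are the gene ends on that strand, lie 67.9 to 175.8 kb apart. The pairwise r was 0.42 for Kcna1 and Kcna6, 0.34 for Kcna1 and Kcna5 and 0.16 for Kcna5 and Kcna6.

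**Figure D4:**
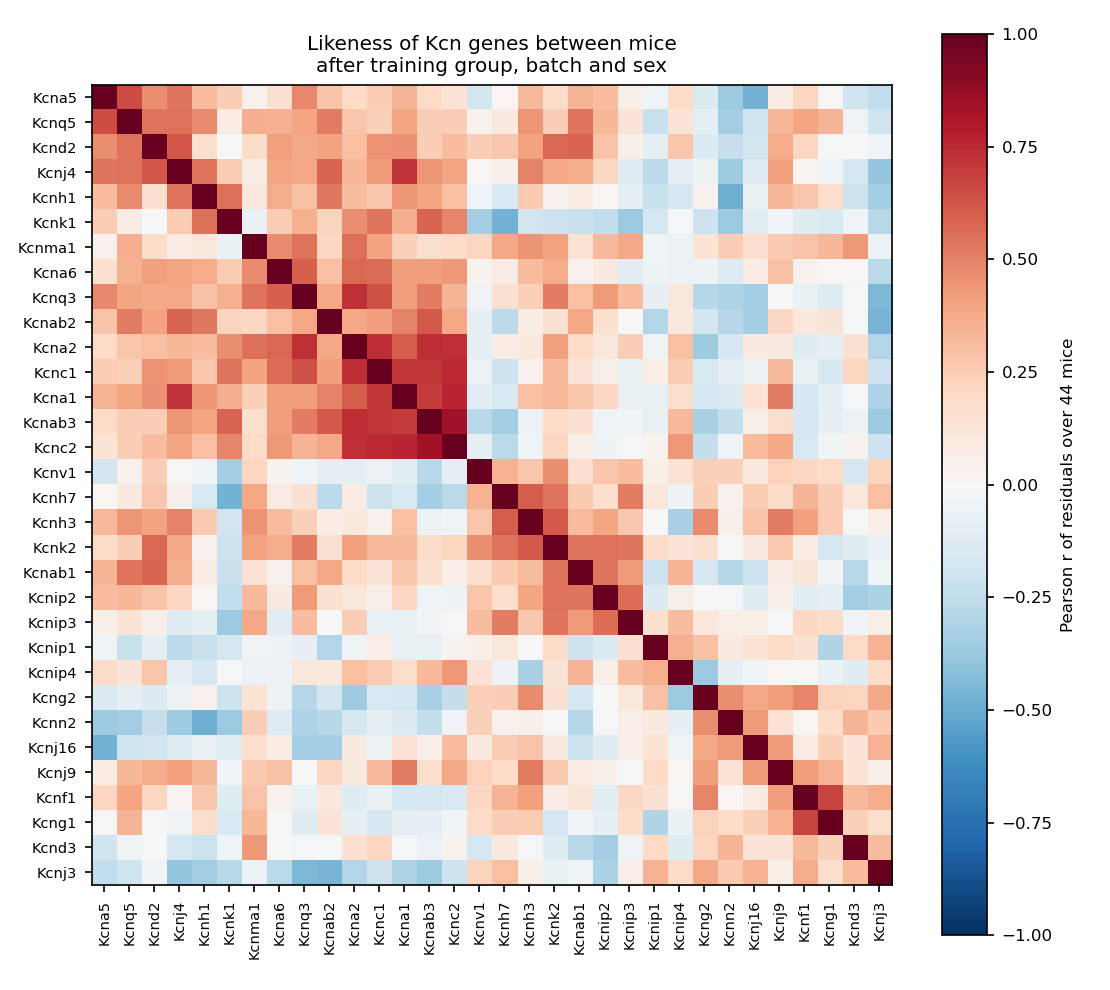
Pearson correlation between each pair of 32 Kcn genes over 44 mice after group, batch and sex were taken out, with genes ordered by average linkage. The dark block along the diagonal holds Kcna1, Kcna2, Kcnab3, Kcnc1 and Kcnc2, with r from 0.60 to 0.84, and the lowest value is that of Kcnh1 and Kcnn2 (-0.49).

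Members also differed in which cell markers they followed. Kcna5, Kcnd2 and Kcnq5 followed the score of Crh and central amygdala markers most closely, with residual r of 0.59, 0.56 and 0.55. Kcnip4 (0.59), Kcnab1 (0.56) and Kcnf1 (0.45) followed the general neuronal score. Kcnj16 (0.67) and Kcnn2 (0.58) followed the astrocyte score, while Kcna5 ran against it (-0.61). Kcnn2 was about as close to the glutamatergic score (0.55), which rests on 2 markers. The silent subunits Kcng1 (0.50), Kcng2 (0.45) and Kcnf1 (0.34) also had positive r with that score, whereas Kcna5 and Kcnd2 each had -0.52. Kcnk1 (0.64) and Kcnh1 (0.56) followed the choroid plexus score, and Kcnh7 ran against it (-0.52). No member had a residual r beyond 0.23 in size with log2 library size.

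**Figure D5:**
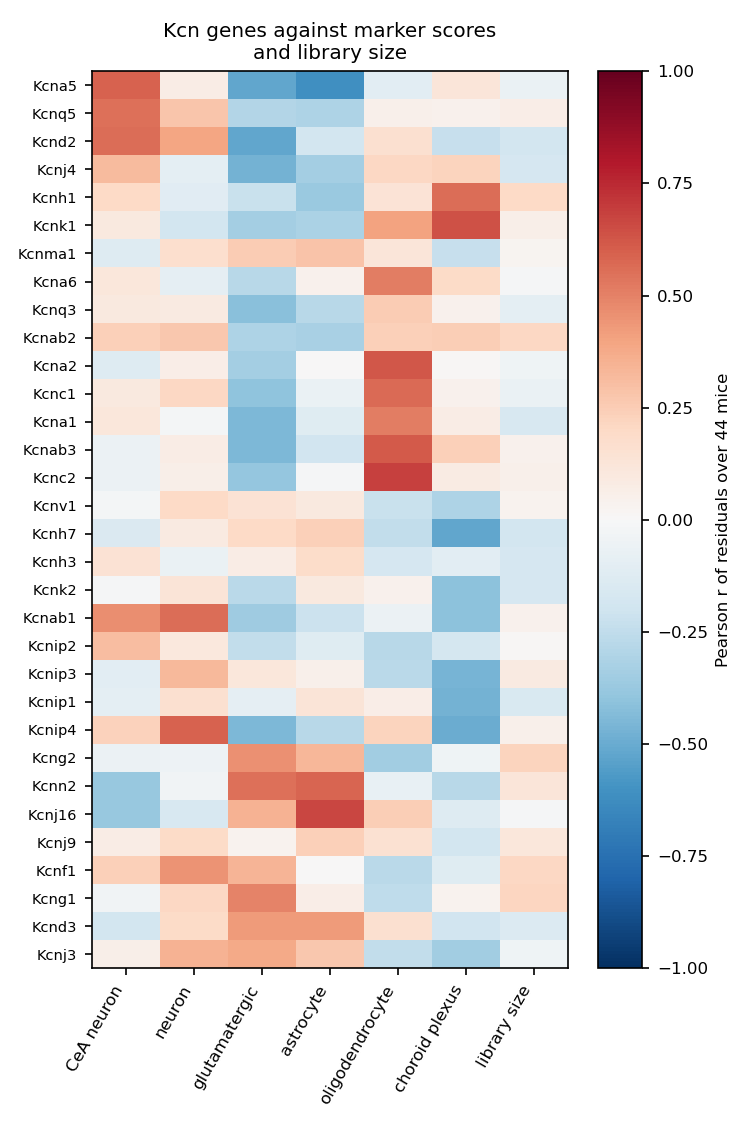
Pearson correlation over 44 mice of the same 32 Kcn genes with marker scores and log2 library size, after group, batch and sex were taken out, in the gene order of the correlation plot. Kcnc2 has the highest value with the oligodendrocyte score (0.68), Kcnj16 with the astrocyte score (0.67) and Kcnk1 with the choroid plexus score (0.64).

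Proteins that anchor, regulate or feed potassium channels were read from the same fits. Of 42 such partner genes 39 had a row, and in EXT vs. TA 1 was called higher (10.4% of all genes) and 1, a gene not reported here, lower (11% of all genes), while in FC vs. TA and in EXT vs. FC 0 were called (0% of all genes in each). Before adjustment, p was under 0.05 in EXT vs. TA for 5 higher (19.1% of all genes) and 5 lower partners (18.7%), in FC vs. TA for 0 (4.22%) and 3 (6.18%), and in EXT vs. FC for 2 (11%) and 1 (8.35%). Coding batch as categories left 3 higher (10.2% of all genes) and 0 lower (11%) in EXT vs. TA. Rgs7bp, which anchors a regulator of the G-proteins that open Kcnj3 channels, rose by 0.49 (SE 0.16, limma adjusted p = 0.0299). The G-protein beta subunit Gnb1 (0.28, SE 0.10, adjusted p = 0.0501) and the scaffold Dlg4 (0.40, SE 0.16, adjusted p = 0.0603), which clusters Kv1 channels, had the next smallest p among higher estimates. Lower estimates that did not pass included those of Vapa (-0.35, SE 0.14, adjusted p = 0.0649), a protein of contacts between the reticulum and the cell membrane, and Atp1b1 (-0.52, SE 0.22, adjusted p = 0.0860), a beta subunit of ion pumps. With batch as categories 0 of 39 were called, and the estimates were 0.38 for Rgs7bp, 0.18 for Gnb1, 0.49 for Dlg4, -0.09 for Vapa and -0.05 for Atp1b1.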

How the data were processed

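TRAP RNA from 44 mice was sequenced as paired ends, 1 mouse to a library. Per the labels and the study's methods, the authors trimmed reads with Trimmomatic 0.36, mapped them to GRCm38 with STAR, sorted them with SAMtools, kept genes above a minimum CPM in every sample with edgeR, dropped outlying samples and deposited voom-normalized log2 CPM values. Groups, sex and batch came from the labels.

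Fits were made on the deposited log2 values over all 8203 rows with limma 3.58.1 in R 4.3.3 (two-sided, Benjamini-Hochberg, threshold 0.05), on the groups compared only, with batch number (numeric) and sex as covariates. The study states control for batch and sex but not the coding of batch, so batch as categories stands beside each call. Other settings were no batch term, no batches 3 and 4, a minimum mean of 5, median centring, quantile normalization, log2 library size as a covariate, voom weights, a trended prior, all groups in one fit and pore-forming subunits only. Reads were recovered from voom's offset of 0.5 reads. The median depth of a Kcn gene ran from 170 reads (Kcnh7) to 4292 (Kcnip2), and no interval for counting error was needed beside the spread between mice. Lengths and positions came from GENCODE M21 (GRCm38). The fit was tested on simulated data.

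The members, classes, marker and partner lists and rules were chosen with earlier results of these data known. The text names every Kcn gene called in EXT vs. TA, the 3 with the smallest p in each other comparison, the highest and lowest per length in each class, genes with textbook roles, the most and least alike pairs, and partners with the smallest p in EXT vs. TA, except that results for some of these genes are not reported here and are not drawn. Counts and medians cover all members. Kcng2, Kcnv1, Kcnq5, Kcnj4, Kcnip4 and Kcna6 were singled out after their values were seen. The sex labels were not checked against expression. Protein sequences were not used here.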

Additional observations from a re-analysis of the deposited data

Results flagged for a closer look

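Values were screened by condition and sex for a mouse set apart from the rest of its group by Dixon's gap ratio, over 25 named Kcn genes and 150 sets of 6 or 10 mice. The screen flags about 1 set in 20 by chance, and 12 were set apart. None is explained here.

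Of these, 4 belonged to 1 TA male, mouse 35 of batch 1: lowest in its set for Kcnab1 (6.79 log2 CPM, gap ratio 0.467) and Kcnip2 (7.32, gap ratio 0.512), and highest for Kcnab3 (5.93, gap ratio 0.495) and Kcnma1 (5.61, gap ratio 0.525). Its summed choroid plexus markers were 11152 CPM, rank 11 of 44 from the highest. The EXT female numbered 26, also of batch 1, was highest for Kcna1 (6.51, gap ratio 0.683) and Kcnc1 (6.65, gap ratio 0.662), and its summed choroid plexus markers were the lowest of all mice at 186 CPM.

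In FC males, mouse 49 of batch 1 was lowest for Kcnn2 (3.28, gap ratio 0.711), while mouse 48 of batch 5 was highest for Kcnip2 (8.69, gap ratio 0.636) and lowest for Kcnj3 (3.86, gap ratio 0.635). The EXT male numbered 51, of batch 2, was lowest for Kcnh7 (2.53, gap ratio 0.564), with the highest summed choroid plexus markers of all mice (51048 CPM). The EXT female numbered 24 was lowest for Kcnma1 (4.60, gap ratio 0.727), and the TA female numbered 1 was lowest for Kcnh1 (4.52, gap ratio 0.628).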

How the results depend on the processing

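No Kcn gene was called higher in EXT vs. TA under any of the 11 alternatives. Pore-forming subunits only is a subset counted within the main fit, so it could not have added a call. The count called lower was 1. It was 0 with batch as categories, 0 without batches 3 and 4 and 0 with log2 library size as a covariate. The estimate of Kcnf1 ran from -0.37 to -0.31 and kept its direction in 10 of 10 settings. The minimum mean and the trended prior cannot change an estimate, so the direction was fixed in advance in those settings. In FC vs. TA the count with p under 0.05 before adjustment was 3, and became 7 with batch as categories, 1 with no batch term and 1 with a minimum mean of 5, which leaves 17 of 34 genes, and it lay between 2 and 4 in the other settings run for it. Leaving out batches 3 and 4 cannot change FC vs. TA, because they held no FC or TA mice. In EXT vs. FC the count was 0, and 1 with batch as categories, 1 without batches 3 and 4, 2 with the library size covariate and 1 with all groups in one fit. The median change over the family in EXT vs. TA ran from -0.04 to 0.03, and the sex difference stayed at 0 genes with batch as categories, a setting chosen after the data were seen. Among named genes not called in EXT vs. TA, the sign turned with batch as categories for Kcng1 (-0.0834), Kcnn2 (-0.0283), Kcnc1 (0.0964) and Kcnip1 (-0.0984), and for Kcna6 (-0.00575) and Kcnq5 (0.0632), which were not run through the other settings. Without batches 3 and 4 it turned for Kcng1 (-0.0833), Kcnn2 (-0.0205), Kcna1 (-0.00194), Kcnc1 (0.0812) and Kcnip1 (-0.108). With the library size covariate it turned for Kcnh3 (-0.00449), Kcna1 (-0.0901) and Kcnip1 (-0.0618), and with quantile normalization for Kcnk1 (-0.00722). The cause of these shifts was not tested, save that leaving out batches removes 6 EXT mice. No paired analysis was possible because the labels number mice singly and share no replicate number between groups. Depth limits the lowest genes most: Kcnh7 had 72 to 441 recovered reads.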
